A study of Mus musculus with 6 samples.

Results

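Dendritic cells (DC), the antigen-presenting cells that prime T cells or keep them tolerant, were compared between 2 tissues of mice that had received regulatory T cells (Tregs). The comparison set the library of peripheral lymph node (PLN) DC of such mice over the library of their spleen DC, as the log2 ratio of FPKM + 0.5, where FPKM is fragments per kilobase of gene, scaled to the size of the library. Of 21914 gene symbols, 10790 reached 1 FPKM in at least one of the 2 libraries and were compared. They split into 9552 genes at 1 FPKM or more in both libraries, 831 that reached it only in PLN DC and 407 that reached it only in spleen DC. Each side held 1 library, so the differences after Tregs have no replicate check and no p-value.

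The series holds 6 libraries of flow-sorted DC, 1 for each of 2 tissues and 3 states. The states were germ-free (GF) Rag KO mice of the C57BL/6 strain given Tregs, the same kind of mice given naive CD4 T cells, and un-injected ones. Rag KO mice cannot rearrange antigen receptor genes and make no T or B cells of their own, and germ-free animals carry no microbes, so all 6 groups share both. The gate, the number of animals pooled in a library, their age and sex, and the source and dose of the injected cells are not stated in the labels.

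Lymph nodes and spleen hold different mixtures of DC. Resident conventional DC, of a type 1 that cross-presents to CD8 T cells and a type 2 that favours CD4 T cells, live in both organs, and plasmacytoid DC are specialists of type I interferon. Lymph nodes also receive migratory DC, which leave the tissues with the lymph and raise Ccr7, Fscn1, Cd40 and a set of chemokines on the way, also without infection. The spleen filters blood, receives no lymph, and holds a Notch-dependent population of type 2 DC. In such bulk libraries fewer cells of a type and less RNA per cell cannot be told apart.

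Both libraries carried DC transcripts. Itgax, the CD11c integrin chain, was at 134 FPKM in PLN DC and 385 FPKM in spleen DC. Flt3, the growth factor receptor of the lineage, was at 204 FPKM in PLN DC and 221 FPKM in spleen DC, and Zbtb46, a transcription factor of conventional DC, at 30.8 FPKM in PLN DC and 15.2 FPKM in spleen DC. The values summed to 552580 FPKM in the PLN library and 657560 FPKM in the spleen library, and 10383 genes reached 1 FPKM in PLN DC and 9959 in spleen DC. The values are not counts and the depth is unknown. Among 630 genes above 0 and under 0.6 FPKM in both libraries, the ratio of PLN over spleen value piled up at 0.856 (136 genes in the fullest bin), so 1 fragment was worth slightly less FPKM in the PLN library. A listed 0 can be a missing estimate, because 12 of 13 mitochondrial genes are at 0 in both libraries, and no fold is given against it. Both Treg libraries carried Y-linked transcripts and the other 4 did not. Eif2s3y was at 58.3 FPKM in PLN DC and 39.5 FPKM in spleen DC of Treg mice, whereas the 4 such genes measured stayed at or below 0.440 FPKM in the libraries of the other states. The tissues are therefore matched in this respect after Tregs, but the Treg state and the sex chromosomes cannot be told apart in any comparison with the other states.

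PLN DC of Treg mice had a far higher migratory maturation program than spleen DC, with Ccl22, Fscn1, Cacnb3 and Ccr7 at 7.76 to 85.8 times the spleen level. Of the 20 type 1 conventional DC genes 11 were at least 2-fold lower in PLN DC, Clec9a among them, and so were Dtx1, Clec4a4 and Treml4, genes known from spleen DC or monocytes. The lectins Cd209d, Mgl2 and Clec10a and most plasmacytoid DC genes were also higher in PLN DC. At least 2-fold higher in PLN DC were 1509 genes (14% of those compared), and at least 2-fold lower were 949 genes (8.8%). Among the 9552 genes at 1 FPKM or more in both libraries the counts were 873 higher and 673 lower. A gene that passed the filter through one library alone is bound to lean towards that library, so list counts are also given over the genes at 1 FPKM or more in both, where that set is smaller. List counts below are to be read beside 14% higher and 8.8% lower of all compared genes. For genes at 1 FPKM or more in both, they stand beside 873 higher and 673 lower of 9552. At 4-fold the counts were 520 higher (4.82%) and 185 lower (1.71%). The median log2 ratio of all genes was -0.00081. With both libraries scaled to the same sum of FPKM, that median would move to 0.24 and the 2-fold counts to 1996 higher and 646 lower (75.5% higher among those past 2-fold, against 61.4% as deposited), so ratios near 0 have no settled sign.

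**Figure D1:**
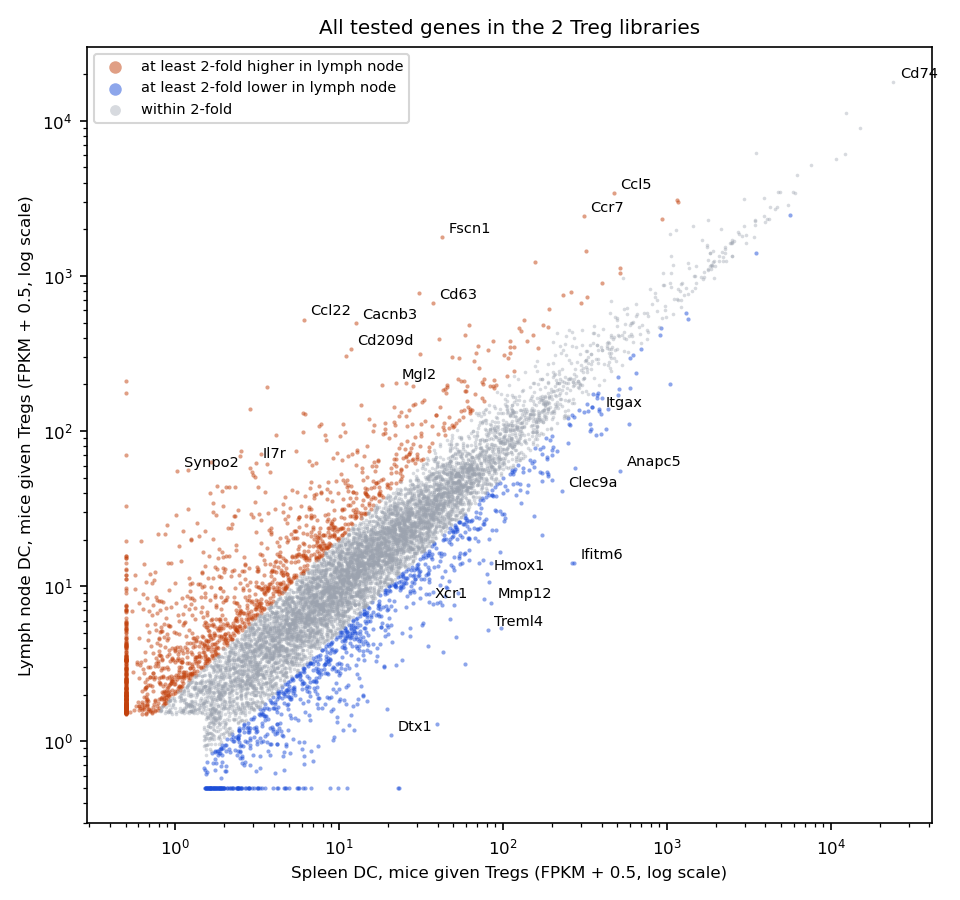
Level of each compared gene in PLN DC (vertical axis) and spleen DC (horizontal axis) of mice given Tregs, both as FPKM + 0.5 on log scales, 1 point a gene. The 1509 genes at least 2-fold higher in PLN DC and the 949 at least 2-fold lower are coloured; points on the lines at 0.5 are genes listed at 0 in that library.

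The 15 genes with the highest ratios were taken among those at 20 FPKM or more in one library and above 0 in both. Ccl22 (chr8:94745590-94751699, plus strand, GRCm38), a chemokine that attracts CCR4-bearing T cells, Tregs among them, led with 523 FPKM in PLN DC and 5.60 FPKM in spleen DC. Its log2 ratio of 6.42 corresponds to 85.8-fold. Synpo2, an actin-binding protein, followed with 54.5 FPKM in PLN DC and 0.538 FPKM in spleen DC (log2 ratio 5.73). Nudt17, a Nudix hydrolase gene, was at 192 FPKM in PLN DC and 3.15 FPKM in spleen DC (5.72). Neither Synpo2 nor Nudt17 passed 9.06 FPKM in spleen DC of any state. Adcy6, an adenylyl cyclase, was at 139 FPKM in PLN DC and 2.39 FPKM in spleen DC (5.59). Fscn1 (chr5:142960343-142973185, plus strand), the actin-bundling protein of DC veils, was at 1769.6 FPKM in PLN DC and 42.4 FPKM in spleen DC (5.37). Cacnb3, a calcium channel subunit, was at 498 FPKM in PLN DC and 12.3 FPKM in spleen DC (5.29). The other 9 of the 15 were Ltc4s, the leukotriene C4 synthase, Mmp25, Cd209d, Slc27a3, the semaphorin receptor Nrp2, Stap2, Arc, Anxa3 and the chemokine Cxcl1, with log2 ratios of 4.72 to 5.25.

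Genes listed at 0 in spleen DC fell outside that rule, 256 of those compared, and the following were picked after their values were seen. Clu, the secreted chaperone clusterin, was at 209 FPKM in PLN DC and listed at 0 in spleen DC. Retnla, a resistin-like protein of alternatively activated myeloid cells, was at 174 FPKM in PLN DC and listed at 0 in spleen DC. Ccl8, a monocyte chemokine, was at 32.4 FPKM in PLN DC and also listed at 0 in spleen DC. Conversely 102 genes were listed at 0 in PLN DC, of which Slpi, an inhibitor of leukocyte proteases, was at 22.5 FPKM in spleen DC.

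At the other end stood globins and several genes known from myeloid cells. Hbb-bt, a beta globin, was at 0.795 FPKM in PLN DC and 39 FPKM in spleen DC (log2 ratio -4.93). Ifitm6, of the interferon-induced transmembrane family, was at 13.7 FPKM in PLN DC and 271 FPKM in spleen DC (-4.26). Dtx1 (chr5:120680202-120711927, minus strand), the Notch target Deltex, was at 0.605 FPKM in PLN DC and 20.3 FPKM in spleen DC (-4.24). Its PLN value stayed under 1 FPKM in each of the 3 states. Asb2, which targets filamins for degradation, was at 2.66 FPKM in PLN DC and 58.1 FPKM in spleen DC (-4.21). Treml4 (chr17:48264295-48275360, plus strand), a receptor of spleen DC and non-classical monocytes, was at 4.75 FPKM in PLN DC and 81.0 FPKM in spleen DC (-3.96). Mmp12, the macrophage elastase, was at 7.34 FPKM in PLN DC and 84.8 FPKM in spleen DC (-3.44). Anapc5, a subunit of the anaphase-promoting complex, owed its place to 1 library, since it stood at 521 FPKM in spleen DC of Treg mice and at 37.5 to 86.6 FPKM in the other 5 libraries. The other 8 of the 15 lowest were Hbb-bs, Hba-a1, Serpinb10, the peptidase Ace, Clec4a4, Trpm2, Tgm2 and the scavenger receptor Cd36, with log2 ratios of -4.24 to -2.96.

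All 36 genes of the maturation and migration list passed the filter, and 32 were at least 2-fold higher in PLN DC against 1 that was lower, beside 14% and 8.8% of all compared genes. Their median log2 ratio was 2.89, and 24 were at least 4-fold higher. Ccr7 (chr11:99144196-99155077, minus strand), the receptor that guides DC to the T cell zone, was at 2427 FPKM in PLN DC and 312 FPKM in spleen DC (log2 ratio 2.96). The chemokine Ccl5 was the most abundant list gene in PLN DC, with 3419.5 FPKM in PLN DC and 476 FPKM in spleen DC (2.84). Cd63, a tetraspanin of endosomes, was at 669.7 FPKM in PLN DC and 37.0 FPKM in spleen DC (4.16). Interleukin 15 and its presenting receptor chain were both higher in PLN DC. Il15 was at 87.3 FPKM in PLN DC and 7.87 FPKM in spleen DC (3.39). Il15ra was at 107 FPKM in PLN DC and 7.12 FPKM in spleen DC (3.82). Tmem123, a surface protein of DC motility, was at 1233 FPKM in PLN DC and 156 FPKM in spleen DC (2.98). Il4i1 and Socs2 act as brakes, by degrading aromatic amino acids and by inhibiting cytokine signals. Il4i1 was at 316 FPKM in PLN DC and 30.6 FPKM in spleen DC (3.35). Socs2 was at 70.8 FPKM in PLN DC and 2.87 FPKM in spleen DC (4.40).

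Cd80 and Cd86 did not share this pattern. Cd86, a ligand of CD28 and CTLA4, was at 78.7 FPKM in PLN DC and 175 FPKM in spleen DC (-1.15) and was the single gene of the maturation list at least 2-fold lower. Its relative Cd80 was at 53.3 FPKM in PLN DC and 87.7 FPKM in spleen DC (-0.71). Cd83, which stabilises MHC class II and CD86 on the surface, was at 1184 FPKM in PLN DC and 1086 FPKM in spleen DC (0.12), so that neither Cd80 nor Cd83 reached 2-fold. Cd40, the receptor for T cell help, was higher in PLN DC, with 197 FPKM in PLN DC and 45.1 FPKM in spleen DC (2.12). The PD-1 ligand Cd274 was at 126 FPKM in PLN DC and 38.7 FPKM in spleen DC (1.69), and the second one, Pdcd1lg2, at 13.4 FPKM in PLN DC and 3.30 FPKM in spleen DC (1.88). Icosl, the ICOS ligand, was at 131 FPKM in PLN DC and 62.8 FPKM in spleen DC (1.05). Over the costimulatory and coinhibitory list 19 of 22 genes passed the filter, of which 9 were at least 2-fold higher and 4 lower in PLN DC, or 7 higher and 4 lower of the 16 at 1 FPKM or more in both. Cd200, a ligand that restrains myeloid cells, was at 31.1 FPKM in PLN DC and 3.61 FPKM in spleen DC (2.94). Tnfsf4, the OX40 ligand, was at 9.91 FPKM in PLN DC and 0.921 FPKM in spleen DC (2.87). On the lower side, Havcr2, the checkpoint receptor TIM-3, was at 50.9 FPKM in PLN DC and 189 FPKM in spleen DC (-1.88). Tnfsf14, the cytokine LIGHT, was at 1.32 FPKM in PLN DC and 9.51 FPKM in spleen DC (-2.46).

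**Figure D2:**
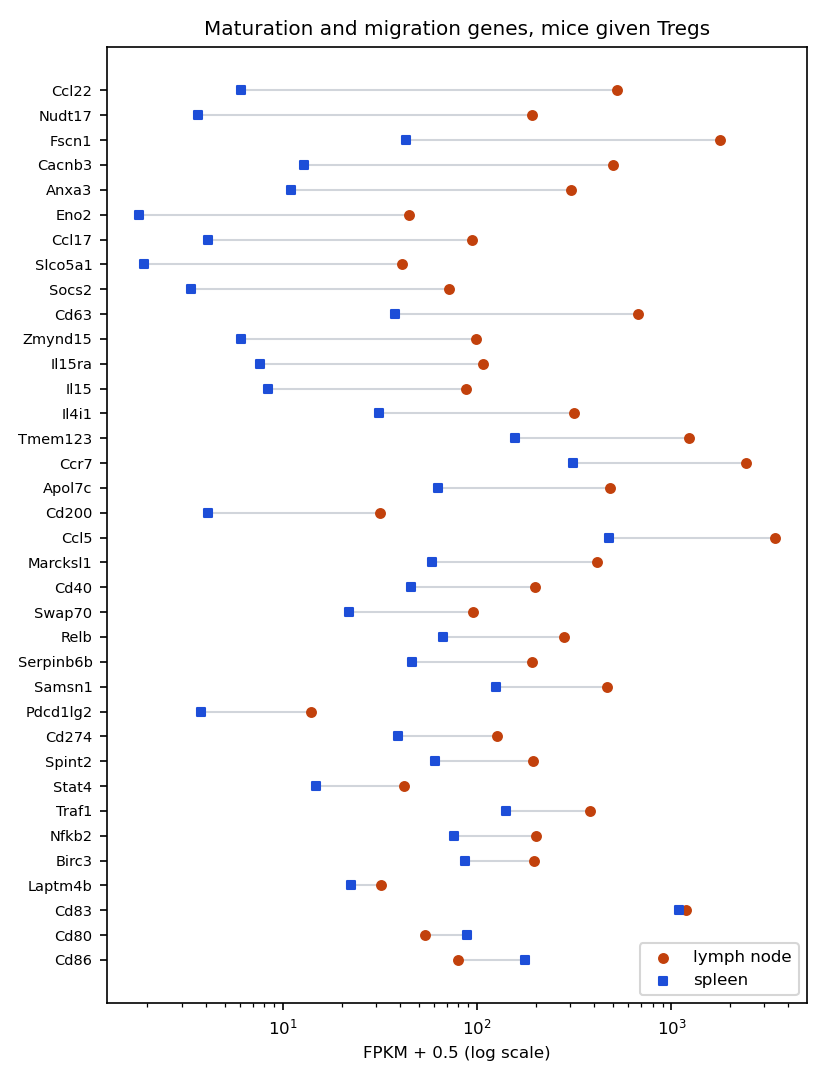
Level of each of the 36 maturation and migration genes in PLN DC (circles) and spleen DC (squares) of mice given Tregs, as FPKM + 0.5 on a log scale, 1 library a point and genes ordered by ratio. The PLN value lies to the right for 34 genes, and to the left for Cd80 and Cd86.

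Chemokine genes went both ways. Of 24 list genes 21 passed the filter, with 11 at least 2-fold higher in PLN DC, 3 lower, and a median log2 ratio of 2.0. This median rests on genes near 0 in spleen DC, because over the 13 genes at 1 FPKM or more in both libraries it was 0.04. Ccl17 (chr8:94810453-94812036, plus strand), the second CCR4 ligand, was at 93.4 FPKM in PLN DC and 3.61 FPKM in spleen DC (4.51). Cxcl16, a transmembrane ligand for CXCR6, was at 354 FPKM in PLN DC and 69.8 FPKM in spleen DC (2.34). Cxcl1, a neutrophil chemokine, was at 31.2 FPKM in PLN DC and 0.702 FPKM in spleen DC (4.72), and Cx3cl1, fractalkine, at 13.6 FPKM in PLN DC and 0.447 FPKM in spleen DC (3.90). The inflammatory chemokines Ccl3 and Ccl4 were on the lower side in PLN DC. Ccl3 was at 39.7 FPKM in PLN DC and 141 FPKM in spleen DC (-1.81), and Ccl4, short of 2-fold, at 242 FPKM in PLN DC and 458 FPKM in spleen DC (-0.92). The CXCR3 ligands, which draw activated T cells, were near each other or lower. Cxcl9 was at 15.4 FPKM in PLN DC and 34.6 FPKM in spleen DC (-1.14) and Cxcl10 at 24.1 FPKM in PLN DC and 29.5 FPKM in spleen DC (-0.29).

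Of 20 cytokine genes 15 passed the filter, and 6 were at least 2-fold higher and 3 lower in PLN DC, or 5 higher and 2 lower of the 11 at 1 FPKM or more in both. Il12b, the p40 chain of interleukins 12 and 23, was at 85.7 FPKM in PLN DC and 25.5 FPKM in spleen DC (1.73). Its partner chains Il12a and Il23a stayed under 1 FPKM in both. Osm, oncostatin M, was at 36.1 FPKM in PLN DC and 7.98 FPKM in spleen DC (2.11). Tnf, on the lower side, was at 19.6 FPKM in PLN DC and 43.1 FPKM in spleen DC (-1.12). Tgfb1, a cytokine of Treg induction, was at 52.6 FPKM in PLN DC and 116 FPKM in spleen DC (-1.13). Of 24 chemokine and egress receptors 16 passed, with 6 higher, Ccr7 among them, and 3 lower, or 3 higher and 2 lower of the 12 at 1 FPKM or more in both. Ccr9, a homing receptor that plasmacytoid DC carry, was at 22.3 FPKM in PLN DC and 4.87 FPKM in spleen DC (2.09), and the monocyte receptor Ccr2 at 64.1 FPKM in PLN DC and 25.8 FPKM in spleen DC (1.29). Cxcr3, on the lower side, was at 2.51 FPKM in PLN DC and 8.75 FPKM in spleen DC (-1.62).

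NF-kB subunits and feedback regulators were on the higher side in PLN DC, with all 20 past the filter, 11 at least 2-fold higher, none lower and a median log2 ratio of 1.07 (11 higher of the 19 at 1 FPKM or more in both). Birc2, a ubiquitin ligase of the pathway, was at 142 FPKM in PLN DC and 21.3 FPKM in spleen DC (2.71). Relb, a subunit of the alternative pathway, was at 281 FPKM in PLN DC and 66.3 FPKM in spleen DC (2.07). The inhibitor Nfkbia was at 609.5 FPKM in PLN DC and 191 FPKM in spleen DC (1.67). Nfkb1, the p50 precursor, was not among the higher ones, at 148 FPKM in PLN DC and 175 FPKM in spleen DC (-0.24). Relb, Nfkb2, Traf1 and Birc3, each at least 2-fold higher, are also counted in the maturation list.

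Interferon-gamma response genes had 24 of 25 past the filter, 11 at least 2-fold higher in PLN DC, 1 lower and a median of 0.93. Over the 21 at 1 FPKM or more in both, 9 were higher, 1 was lower and the median was 0.75. Guanylate-binding proteins, which attack the vacuoles of intracellular microbes, were among the highest ratios, but not all of them, since Gbp7 was at 2.49 FPKM in PLN DC and 1.30 FPKM in spleen DC (0.74). Gbp5 was at 53.9 FPKM in PLN DC and 3.32 FPKM in spleen DC (3.83) and Gbp2 at 92.4 FPKM in PLN DC and 9.69 FPKM in spleen DC (3.19). Socs1, the feedback inhibitor of the pathway, was at 15.1 FPKM in PLN DC and 1.12 FPKM in spleen DC (3.27), and the factor Irf1 at 215 FPKM in PLN DC and 52.6 FPKM in spleen DC (2.02). The immunity-related GTPases of the same list at 1 FPKM or more in both libraries reached at most the ratio of Ifi47, at 27.7 FPKM in PLN DC and 11.2 FPKM in spleen DC (1.27). Igtp was at 7.85 FPKM in PLN DC and 4.50 FPKM in spleen DC (0.74) and Irgm1 at 23.9 FPKM in PLN DC and 14.3 FPKM in spleen DC (0.72). Of 29 type I interferon response genes 28 passed, 22 of them within 2-fold, with 5 higher, 1 lower and a median of 0.31 (4 higher and 1 lower of the 27 at 1 FPKM or more in both). Mx1, a restriction factor, was at 109 FPKM in PLN DC and 21.5 FPKM in spleen DC (2.32), while Isg15, a ubiquitin-like modifier, was at 87.6 FPKM in PLN DC and 71.8 FPKM in spleen DC (0.29).

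Promoters of some such genes are shown, picked because they hold matches to motifs through which NF-kB and interferon-activated factors are known to act. The sequences are RefSeq promoters of GRCm38.p6, 250 bases before to 50 after the start, read 5′ to 3′ on the strand of the gene, with capitals for matches on either strand to the kB motif (GGGA, any base, TTTCC) or the interferon-stimulated response element (GAAA, any 2 bases, GAAA). Cxcl1 (chr5:90890995-90891294, plus strand) and Nfkbia (chr12:55492598-55492897, minus strand) show kB matches in genes higher in PLN DC. Gbp5 (chr3:142496684-142496983, plus strand) holds both motifs. Gbp2 (chr3:142620413-142620712, plus strand) and Igtp (chr11:58199306-58199605, plus strand) hold the interferon element, the first in a gene far apart between the tissues and the second in one within 2-fold. Ltb (chr17:35194257-35194556, plus strand) holds a kB match in a gene that was lower.
Cxcl1: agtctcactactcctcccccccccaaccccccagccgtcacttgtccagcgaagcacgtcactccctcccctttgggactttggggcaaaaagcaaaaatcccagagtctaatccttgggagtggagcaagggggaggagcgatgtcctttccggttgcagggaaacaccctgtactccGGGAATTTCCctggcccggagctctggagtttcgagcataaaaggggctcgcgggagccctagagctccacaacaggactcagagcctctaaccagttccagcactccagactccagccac
Nfkbia: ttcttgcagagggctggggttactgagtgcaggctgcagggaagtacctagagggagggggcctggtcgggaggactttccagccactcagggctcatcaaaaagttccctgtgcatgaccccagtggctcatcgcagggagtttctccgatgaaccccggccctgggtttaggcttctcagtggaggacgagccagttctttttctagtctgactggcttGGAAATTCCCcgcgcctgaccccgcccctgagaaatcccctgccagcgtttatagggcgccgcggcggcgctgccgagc
Gbp5: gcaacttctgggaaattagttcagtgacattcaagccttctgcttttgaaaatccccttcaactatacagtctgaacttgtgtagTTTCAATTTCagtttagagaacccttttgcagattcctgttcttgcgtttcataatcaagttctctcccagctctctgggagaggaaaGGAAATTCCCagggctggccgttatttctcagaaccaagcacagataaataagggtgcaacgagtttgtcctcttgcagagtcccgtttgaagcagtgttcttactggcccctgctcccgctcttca
Gbp2: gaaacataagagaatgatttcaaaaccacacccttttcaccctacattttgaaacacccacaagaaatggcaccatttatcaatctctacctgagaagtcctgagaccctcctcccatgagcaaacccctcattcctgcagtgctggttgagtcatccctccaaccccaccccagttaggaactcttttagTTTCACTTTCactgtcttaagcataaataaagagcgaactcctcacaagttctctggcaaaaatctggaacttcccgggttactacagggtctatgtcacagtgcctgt
Igtp: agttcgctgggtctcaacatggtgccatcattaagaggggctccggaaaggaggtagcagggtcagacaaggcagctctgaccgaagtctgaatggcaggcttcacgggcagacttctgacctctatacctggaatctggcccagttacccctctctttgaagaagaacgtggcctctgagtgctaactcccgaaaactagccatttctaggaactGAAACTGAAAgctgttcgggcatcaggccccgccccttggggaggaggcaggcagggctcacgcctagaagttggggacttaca
Ltb: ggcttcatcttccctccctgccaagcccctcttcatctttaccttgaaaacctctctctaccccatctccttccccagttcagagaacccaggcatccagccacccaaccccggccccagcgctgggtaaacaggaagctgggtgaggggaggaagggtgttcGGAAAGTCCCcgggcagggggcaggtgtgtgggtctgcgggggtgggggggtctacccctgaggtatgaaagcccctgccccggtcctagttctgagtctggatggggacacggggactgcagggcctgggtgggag
Counting the first transcribed base as 0, the matches begin at -71 in Cxcl1, -29 in Nfkbia, -77 (kB) and -165 (interferon element) in Gbp5, -59 in Gbp2, -34 in Igtp and -87 in Ltb. A gene was counted once, as holding a motif if any of its promoters did. Of 16154 genes with a promoter 0.514% held the kB motif and 3.96% the interferon element. Of 8430 compared genes with a promoter, 51 held the kB motif, of which 14 (27.5%) were at least 2-fold higher in PLN DC and 9 (17.65%) lower, beside 13.55% and 8.49% of all 8430. Among them were Cxcl1, Cxcl3, Csf1, Il6, Nfkb2 and Nfkbia on the higher side and Ltb, Tlr3 and Birc5 on the lower. Ltb, the lymphotoxin beta chain, was at 13.5 FPKM in PLN DC and 71.1 FPKM in spleen DC (-2.35). The interferon element was in 340, of which 14.7% were higher and 9.41% lower. It was found for 10 of the 17 interferon-gamma genes with a promoter (58.8%) and 12 of the 20 type I genes (60%), and in both Gbp2 and Igtp, whose ratios differed. Of 24 maturation genes with a promoter 1, Nfkb2, held the kB motif, and of 17 genes of the NF-kB list 2, Nfkb2 and Nfkbia, did. The motif GAGGAAGT, a site of the myeloid factor PU.1, was held by 359 compared genes, of which 12.0% were higher and 15.6% lower, and TGTGGTT, a RUNX site, by 385, of which 16.1% were higher and 10.1% lower. A match is a description of these letters and not of binding.

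Type 1 conventional DC genes were on the lower side in PLN DC, with all 20 past the filter, 11 at least 2-fold lower, 3 higher and a median log2 ratio of -1.14. Clec9a (chr6:129408862-129424763, plus strand), a receptor for dead cells, was at 40.8 FPKM in PLN DC and 229.8 FPKM in spleen DC (-2.48). The chemokine receptor Xcr1 was at 7.42 FPKM in PLN DC and 34.8 FPKM in spleen DC (-2.16). Cadm1, an adhesion molecule, was at 8.51 FPKM in PLN DC and 52.7 FPKM in spleen DC (-2.56), and Tlr3, a sensor of double-stranded RNA, at 4.51 FPKM in PLN DC and 23.7 FPKM in spleen DC (-2.28). The transcription factors of the lineage were within 2-fold. Irf8 was at 130.5 FPKM in PLN DC and 167 FPKM in spleen DC (-0.35) and Batf3 at 71.5 FPKM in PLN DC and 55.9 FPKM in spleen DC (0.35). Id2, Ly75 and Sept3 were the 3 on the higher side, of which Id2, a factor that all conventional DC use, was at 748 FPKM in PLN DC and 232 FPKM in spleen DC (1.69). Ly75, the endocytic receptor DEC-205, was at 45.6 FPKM in PLN DC and 10.4 FPKM in spleen DC (2.08).

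The type 2 list went both ways, with 5 of its 18 genes at least 2-fold lower in PLN DC, 2 higher and a median of -0.23, which would be 0.02 at equal library sums. Over the 16 at 1 FPKM or more in both, 3 were lower and 2 higher. Among the lower ones were Dtx1, Clec4a4 and Cd4, known from the Notch-dependent spleen population. The inhibitory lectin Clec4a4 was at 7.80 FPKM in PLN DC and 75.8 FPKM in spleen DC (-3.20). Cd4, which part of the spleen DC carry, was at 13.2 FPKM in PLN DC and 47.6 FPKM in spleen DC (-1.82). Esam, an adhesion molecule of that population, was on the other side of 0, at 14.3 FPKM in PLN DC and 8.84 FPKM in spleen DC (0.66). The 2 galactose lectins made up the higher side. Mgl2 (chr11:70130329-70137550, plus strand) was at 203 FPKM in PLN DC and 21.8 FPKM in spleen DC (3.19). Clec10a was at 210.0 FPKM in PLN DC and 55.0 FPKM in spleen DC (1.92). Genes that all type 2 DC share were within 2-fold. Sirpa was at 85.9 FPKM in PLN DC and 114 FPKM in spleen DC (-0.41) and Irf4 at 61.0 FPKM in PLN DC and 39.4 FPKM in spleen DC (0.62). Of the core genes common to conventional DC, 11 passed the filter, with 3 at least 2-fold higher and 2 lower in PLN DC, beside 14% and 8.8% of all compared genes. Of the 3 higher ones, Ccr7 and Spint2 are also in the maturation list, and Zbtb46 had a log2 ratio of 1.00.

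Endocytic and C-type lectin receptors spread widely, from Clec4a4 at -3.20 to Cd209d at 4.84. Of 21 past the filter 6 were at least 2-fold higher and 4 lower in PLN DC, with a median of -0.20 that would be 0.05 at equal library sums. At 1 FPKM or more in both were 20, with 6 higher and 3 lower. Cd209d (chr8:3871824-3878555, minus strand), a mouse relative of DC-SIGN, was at 337 FPKM in PLN DC and 11.3 FPKM in spleen DC, or 28.6-fold. Its neighbour Cd209e, which is in no list, was at 128 FPKM in PLN DC and 5.72 FPKM in spleen DC (4.37). Cd209c was at 10.5 FPKM in PLN DC and 4.39 FPKM in spleen DC (1.17) and Cd209a at 351 FPKM in PLN DC and 264 FPKM in spleen DC (0.41). Reads of these related genes can be divided among them in ways the values do not show. Mrc1, the mannose receptor, was at 16.9 FPKM in PLN DC and 5.15 FPKM in spleen DC (1.62). Cd207, the langerin of Langerhans cells and of some type 1 DC, was at 12.6 FPKM in PLN DC and 14.5 FPKM in spleen DC (-0.20).

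Of the 15 plasmacytoid DC genes 13 passed the filter, with 12 at least 2-fold higher in PLN DC, 1 lower and a median of 1.89. Of these Ly6d, Klk1, Pacsin1 and Upb1 passed through PLN DC alone. Over the 9 at 1 FPKM or more in both, 8 were higher, 1 was lower and the median was 1.41. Siglech, a defining lectin of these cells, was at 11.9 FPKM in PLN DC and 4.19 FPKM in spleen DC (1.41). Tcf4, their master transcription factor, was at 63.6 FPKM in PLN DC and 16.8 FPKM in spleen DC (1.89), and Spib, another factor of these cells, at 41.6 FPKM in PLN DC and 7.94 FPKM in spleen DC (2.32). Lag3, an inhibitory receptor for MHC class II that these cells carry, was at 90.2 FPKM in PLN DC and 19.8 FPKM in spleen DC (2.16). Ly6d was at 11.4 FPKM in PLN DC and listed at 0 in spleen DC. The inhibitory receptor Lair1 was the lower one, at 16.0 FPKM in PLN DC and 40.5 FPKM in spleen DC (-1.32). The list summed to 489.9 FPKM in PLN DC and 189 FPKM in spleen DC, with none of its genes listed at 0 in PLN DC and 3 in spleen DC. Its part in the other differences was not tested.

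**Figure D3:**
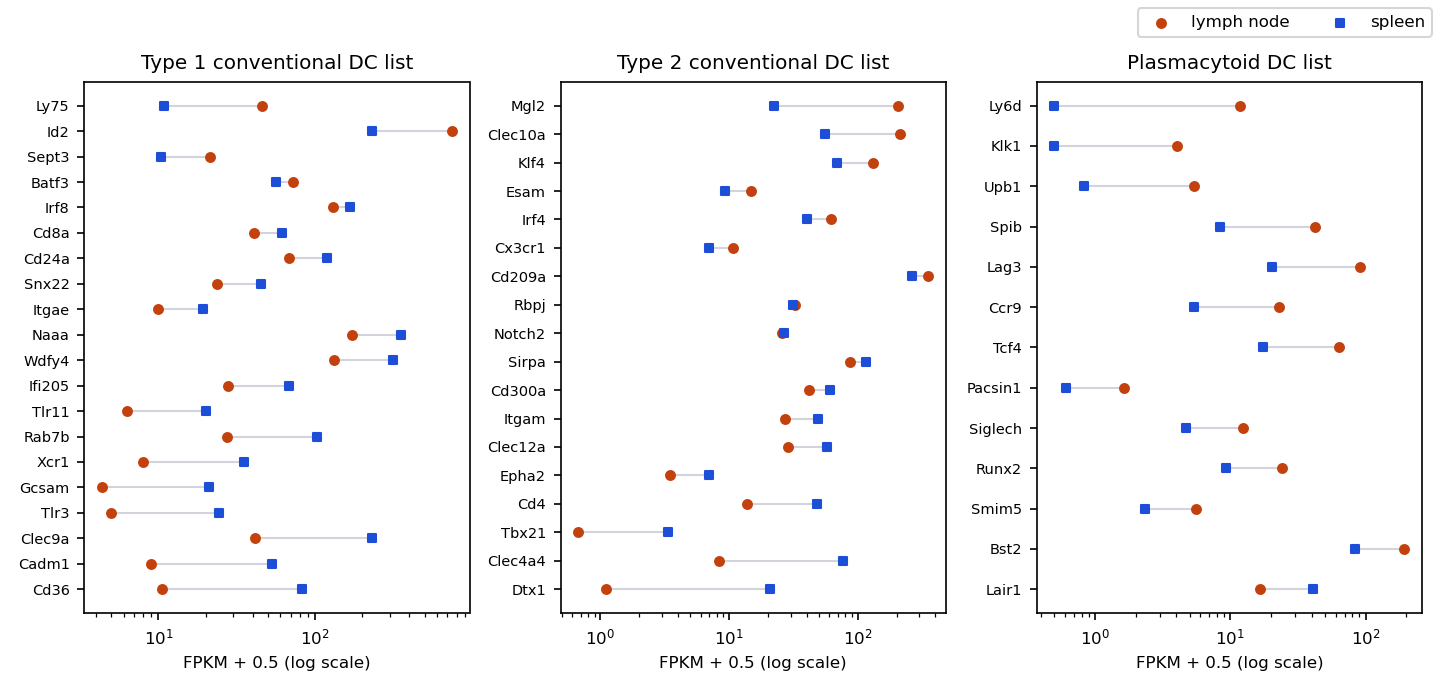
Levels of the type 1, type 2 and plasmacytoid DC list genes past the filter in PLN DC (circles) and spleen DC (squares) of mice given Tregs, as FPKM + 0.5 on log scales, 1 library a point; a point at 0.5 is a gene listed at 0. Type 1 genes lie mostly to the left in PLN DC (16 of 20), plasmacytoid genes to the right (12 of 13, or 8 of the 9 at 1 FPKM or more in both), and the type 2 list holds both ends, from Dtx1 to Mgl2.

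Markers of other cell types were low or mixed. Of 10 erythroid genes 6 passed the filter, 4 of them through spleen DC alone, and both genes at 1 FPKM or more in each library, Hbb-bs and Hba-a1, were at least 2-fold lower in PLN DC. The list summed to 19.6 FPKM in PLN DC and 431 FPKM in spleen DC, with 5 genes listed at 0 in PLN DC and 1 in spleen DC. Globin genes are near copies of one another, and the part of erythroid RNA in the other differences was not tested. The monocyte list had 3 of 18 at least 2-fold higher and 5 lower in PLN DC, with a summed level of 2384 FPKM in PLN DC and 3745 FPKM in spleen DC. Ly6c2, the classical monocyte marker, was at 47.4 FPKM in PLN DC and 9.05 FPKM in spleen DC (2.33). Ace, an enzyme of non-classical monocytes, was at 4.22 FPKM in PLN DC and 51.1 FPKM in spleen DC (-3.45). Macrophage genes had a median of 0.16, with 3 of 16 higher and 2 lower, beside 14% and 8.8% of all compared genes. Over the 13 at 1 FPKM or more in both, 1 was higher and 1 lower. Marco, a scavenger receptor, was at 6.02 FPKM in PLN DC and 0.221 FPKM in spleen DC (3.18), and Adgre1, F4/80, at 31.5 FPKM in PLN DC and 73.1 FPKM in spleen DC (-1.20).

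Defining T cell markers were at or near 0 in both libraries. Cd3e, Cd3d and Cd40lg were listed at 0 in both, Cd3g was at 1.37 FPKM in PLN DC and listed at 0 in spleen DC, and Foxp3, the factor that defines Tregs, was at 0.673 FPKM in PLN DC and 0.400 FPKM in spleen DC. The T cell list summed to 142 FPKM in PLN DC and 40.2 FPKM in spleen DC, with 5 of 21 genes listed at 0 in PLN DC and 10 in spleen DC. Of the 8 genes past the filter 4 were at least 2-fold higher and 2 lower in PLN DC, or 2 higher and 2 lower of the 6 at 1 FPKM or more in both. Most of the PLN sum came from 3 receptors. Il2ra, which mature DC can also carry, was at 21.3 FPKM in PLN DC and 0.371 FPKM in spleen DC (4.64). Tnfrsf4, the receptor OX40, was at 73.7 FPKM in PLN DC and 4.98 FPKM in spleen DC (3.76). Tnfrsf18, the receptor GITR, was at 29.4 FPKM in PLN DC and 17.9 FPKM in spleen DC (0.70). The innate lymphoid list went both ways, with 10 of 20 past the filter, 3 higher, 3 lower and a median of 0.24. Over the 7 at 1 FPKM or more in both, 2 were higher and 2 lower. Il7r, the interleukin 7 receptor chain, was at 62.1 FPKM in PLN DC and 2.64 FPKM in spleen DC (4.32). Tcf7, a lymphoid transcription factor, was at 60.2 FPKM in PLN DC and 6.33 FPKM in spleen DC (3.15). On the lower side of that list, beside Ltb, the growth factor receptor Kit was at 27.0 FPKM in PLN DC and 70.8 FPKM in spleen DC (-1.38). Of the 10 Langerhans and skin-derived genes 7 passed the filter, with 4 higher and 1 lower, or 3 higher and 1 lower of the 5 at 1 FPKM or more in both. Epcam, an epithelial adhesion molecule, was at 14.6 FPKM in PLN DC and 1.33 FPKM in spleen DC (3.05). Cldn1, a tight junction protein, was at 15 FPKM in PLN DC and 1.47 FPKM in spleen DC (2.98). Neutrophil genes summed to 9.51 FPKM in PLN DC and 15.7 FPKM in spleen DC, and keratinocyte genes to 2.03 FPKM in PLN DC and 2.54 FPKM in spleen DC. The natural killer list summed to 223 FPKM in PLN DC and 277 FPKM in spleen DC, most of it from Klrd1 and Klrk1. Both lay within 2-fold, whereas 4 genes that passed through PLN DC alone were higher there. The B cell list summed to 21.7 FPKM in PLN DC and 41.2 FPKM in spleen DC. Stromal and endothelial genes summed to 29.4 FPKM in PLN DC and 31.4 FPKM in spleen DC. Adipocyte, platelet and mast cell lists stayed at or below 35.2 FPKM in either library. The part of these cells in the other differences was not tested.

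The genes of MHC class II and class I presentation leaned in opposite directions. For class II, 11 of 13 ratios were below 0, 3 genes were at least 2-fold lower in PLN DC, 1 was higher, and the median was -0.77. The invariant chain gene Cd74 was at 17708 FPKM in PLN DC and 24144 FPKM in spleen DC (-0.45), and the beta chain gene H2-Ab1 at 6087 FPKM in PLN DC and 12168 FPKM in spleen DC (-1.0). H2-Oa and H2-Ob form H2-O, which restrains peptide exchange. H2-Oa was at 94.9 FPKM in PLN DC and 399 FPKM in spleen DC (-2.06) and H2-Ob at 54.2 FPKM in PLN DC and 169 FPKM in spleen DC (-1.63). Ifi30, a thiol reductase of antigen processing, was the higher one, at 2315 FPKM in PLN DC and 939 FPKM in spleen DC (1.30). For class I, 11 of 14 ratios were above 0 and the median was 0.33. Nlrc5, the transactivator of class I genes, was the one gene at least 2-fold higher, at 112 FPKM in PLN DC and 18.7 FPKM in spleen DC (2.55). The heavy chain gene H2-K1 was at 1877 FPKM in PLN DC and 1045 FPKM in spleen DC (0.84).

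Toll-like receptors and adaptors were on the lower side in PLN DC, with 7 of 19 at least 2-fold lower, 1 higher and a median of -0.47 (6 lower and 1 higher of the 18 at 1 FPKM or more in both). Tlr7, an endosomal receptor for single-stranded RNA, was at 5.16 FPKM in PLN DC and 31.9 FPKM in spleen DC (-2.52). Unc93b1, which carries such receptors to the endosome, was at 138 FPKM in PLN DC and 437 FPKM in spleen DC (-1.66). Ly96, the MD-2 partner of Tlr4, was the higher one, at 38.3 FPKM in PLN DC and 6.53 FPKM in spleen DC (2.46). Tlr4 itself was at 0.389 FPKM in PLN DC and 1.63 FPKM in spleen DC (-1.26). Of the Fc and complement receptors, 1 of 11 past the filter was higher and 2 were lower, beside 14% and 8.8% of all compared genes. Over the 10 at 1 FPKM or more in both, none was higher and 2 were lower. Fcgr4, an activating receptor, was at 8.18 FPKM in PLN DC and 44.1 FPKM in spleen DC (-2.36).

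Adhesion genes went both ways, with 4 of 22 past the filter at least 2-fold higher in PLN DC and 3 lower, shares near those of all genes, and 3 were higher and 3 lower of the 21 at 1 FPKM or more in both. The integrin LFA-1 and its ligand stood on opposite sides. Itgal, the alpha chain, was at 14.3 FPKM in PLN DC and 75.4 FPKM in spleen DC (-2.36). Itgb2, the beta chain, was at 110.0 FPKM in PLN DC and 339 FPKM in spleen DC (-1.62). Their ligand Icam1 was at 211 FPKM in PLN DC and 57.2 FPKM in spleen DC (1.87). F11r, the junctional molecule JAM-A, was at 40.1 FPKM in PLN DC and 3.04 FPKM in spleen DC (3.52), and the tetraspanin Cd81 at 54.0 FPKM in PLN DC and 185 FPKM in spleen DC (-1.77). Of 20 genes linked to tolerogenic DC 13 passed the filter, with 5 higher and 4 lower, or 4 higher and 4 lower of the 10 at 1 FPKM or more in both. Aldh1a2, which makes retinoic acid, was at 16.9 FPKM in PLN DC and 1.37 FPKM in spleen DC (3.22). The ubiquitin ligase Cblb was at 70.2 FPKM in PLN DC and 11.5 FPKM in spleen DC (2.56). Hmox1, heme oxygenase, was lower, at 11.4 FPKM in PLN DC and 79.9 FPKM in spleen DC (-2.75), and Entpd1, the ectonucleotidase CD39, was at 11.1 FPKM in PLN DC and 29.9 FPKM in spleen DC (-1.39).

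Of 14 iron and heme genes 4 were at least 2-fold lower in PLN DC and 1, which passed through PLN DC alone, was higher. Of all compared genes 8.8% were lower and 14% higher. Slc40a1, the iron exporter ferroportin, was at 1.24 FPKM in PLN DC and 12.5 FPKM in spleen DC (-2.90). Of 17 genes of cholesterol synthesis and export 4 were higher and none lower, or 3 higher of the 16 at 1 FPKM or more in both. Abcg1, a cholesterol exporter, was at 108 FPKM in PLN DC and 15.9 FPKM in spleen DC (2.73). The glycolysis list had a median of -0.57 with 1 gene higher and 1 lower. Pfkfb3, which makes the activator of phosphofructokinase, was the higher one, at 394 FPKM in PLN DC and 40.4 FPKM in spleen DC (3.27). Ribosomal, respiratory and cell cycle genes showed ratios of one sign through most of the list. Of 25 cytosolic ribosomal protein genes 24 had ratios below 0 with none past 2-fold (median -0.69). Of 19 respiratory chain genes 17 were below 0 with none past 2-fold (median -0.30, or -0.05 at equal library sums). Of 24 cell cycle genes 23 were below 0 (median -0.81), and 7 were at least 2-fold lower, beside 8.8% of all compared genes. Over the 22 at 1 FPKM or more in both, 5 were at least 2-fold lower. Birc5, survivin, was at 4.20 FPKM in PLN DC and 11.4 FPKM in spleen DC (-1.34). Immediate early and heat shock genes, which the handling of cells can raise, had a median of 0.16. Of the 24 genes 4 were higher and 2 lower, shares near those of all genes, or 2 higher and 2 lower of the 22 at 1 FPKM or more in both.

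**Figure D4:**
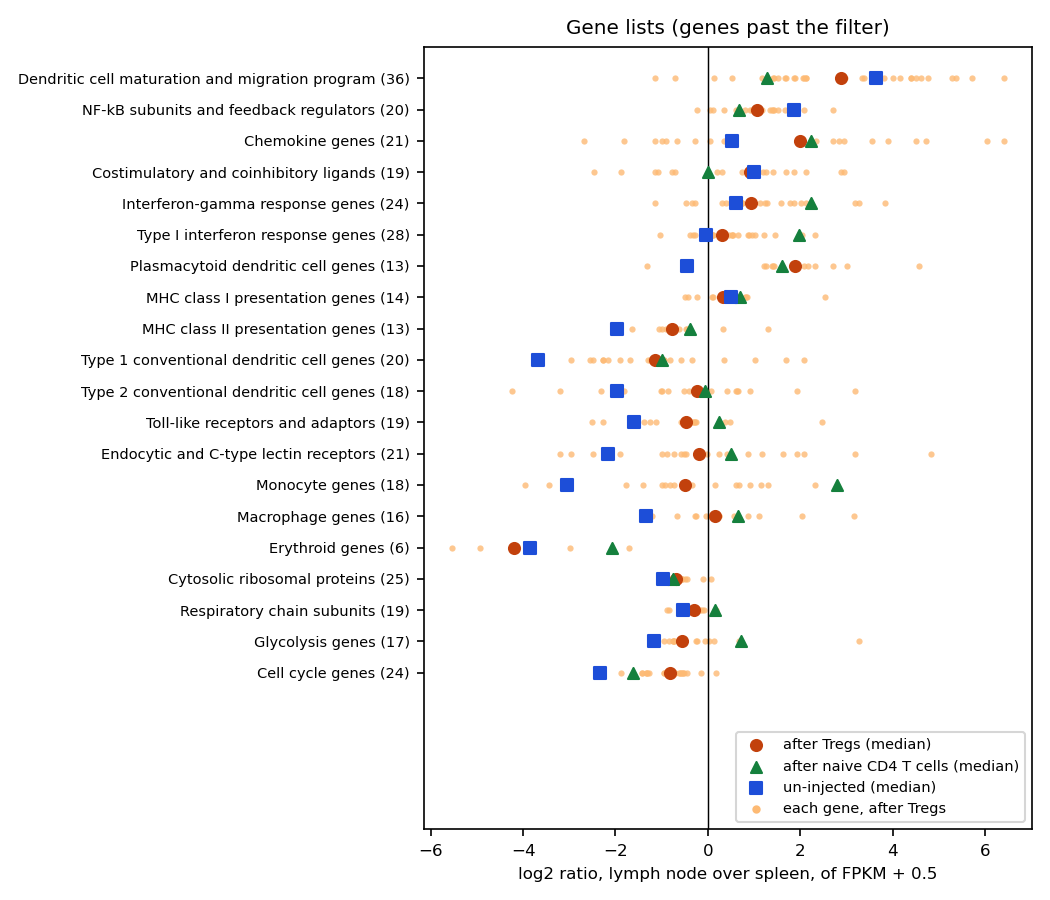
Log2 ratio of PLN over spleen DC for 20 gene lists, with the number of genes past the filter in parentheses. Small points are the genes after Tregs, and large markers are list medians after Tregs (circles), after naive CD4 T cells (triangles) and in un-injected mice (squares), each from 1 library a tissue. The maturation list has its median at 2.89 after Tregs, 1.29 after naive cells and 3.65 in un-injected mice, and the monocyte list at -0.50 after Tregs, 2.80 after naive cells and -3.05 in un-injected mice.

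The same tissue difference was available in mice given naive CD4 T cells and in un-injected mice, from 4 libraries that share none with the Treg pair. Across the 10790 genes the log2 ratio after Tregs had a Pearson r of 0.486 (Spearman rho 0.431) with that after naive cells and of 0.718 (rho 0.694) with that of un-injected mice, which describes genes that share the same libraries and are not replicates. At least 2-fold higher in PLN DC were 1251 genes (11.6%) after naive cells and 2237 (20.7%) in un-injected mice, and at least 2-fold lower were 930 (8.62%) after naive cells and 2201 (20.4%) in un-injected mice. These counts, and the list medians of the other states, are over genes that passed the filter in the Treg pair. By the filter of their own pair, 10589 genes after naive cells and 11147 in un-injected mice would be compared. Of the 1509 genes higher in PLN DC after Tregs, 574 (38.0%) were also at least 2-fold higher after naive cells and 1075 (71.2%) in un-injected mice. Both conditions held for 427 (28.3%), whereas 5.03% of all genes met both. Of the 949 lower genes, 361 (38.0%) were also at least 2-fold lower after naive cells, 685 (72.2%) in un-injected mice and 275 (29.0%) in both, whereas 4.38% of all genes met both. Within 2-fold in both other states were 228 of the higher and 152 of the lower genes. The share of all compared genes within 2-fold in both was not counted, so these counts cannot be called few or many.

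The maturation list kept its side in the 3 states, with 21 of 36 genes at least 2-fold higher in PLN DC in each. Its median was 2.89 after Tregs, 1.29 after naive cells and 3.65 in un-injected mice. Ccr7 stood in PLN DC at 2427 FPKM after Tregs, 895 FPKM after naive cells and 5829 FPKM in un-injected mice. In spleen DC it stood at 312 FPKM after Tregs, 508 FPKM after naive cells and 356 FPKM in un-injected mice, so the PLN values spanned the wider range. Type 1 DC genes were on the lower side in PLN DC in the 3 states, with medians of -1.14 after Tregs, -0.98 after naive cells and -3.67 in un-injected mice. Clec9a stood in PLN DC at 40.8 FPKM after Tregs, 39.9 FPKM after naive cells and 5.14 FPKM in un-injected mice. In spleen DC it stood at 229.8 FPKM after Tregs, 109.9 FPKM after naive cells and 344 FPKM in un-injected mice.

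Other lists changed sign between the states. The monocyte list had a median of -0.50 after Tregs, 2.80 after naive cells and -3.05 in un-injected mice. Ly6c2 reached 1119 FPKM in PLN DC after naive cells, against 11 FPKM in spleen DC. The plasmacytoid list had a median of 1.89 after Tregs, 1.61 after naive cells and -0.45 in un-injected mice. Its 13 genes were those past the filter in the Treg pair, with Ly6d, Klk1, Pacsin1 and Upb1 passing through PLN DC of Treg mice alone. The median after naive cells is the ratio of Klk1, at 1.03 FPKM in PLN DC and listed at 0 in spleen DC, so its size is not settled. The list split in un-injected mice, where 4 of its 13 genes past the filter were at least 2-fold higher in PLN DC and 6 lower. Tcf4 (1.52) and Spib (1.36) stayed on the higher side there, whereas Siglech (-2.70) was on the lower. Siglech stood in PLN DC at 11.9 FPKM after Tregs, 4.62 FPKM after naive cells and 1.68 FPKM in un-injected mice. In spleen DC it stood at 4.19 FPKM after Tregs, 0.248 FPKM after naive cells and 13.7 FPKM in un-injected mice. The interferon-gamma list kept its sign but not its size, with a median of 0.93 after Tregs, 2.23 after naive cells and 0.60 in un-injected mice. Each value rests on 1 library, and the differences between states were not tested.

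Some genes set the Treg pair apart from both other pairs. The largest gaps above the nearer of the other ratios, among genes at 20 FPKM or more in a Treg library and above 0 in all 6, were those of Foxn3, Lag3, Cd209d, Dab2 and Fcor. Foxn3 (chr12:99190078-99563582, minus strand), a forkhead repressor, stood in PLN DC at 68.4 FPKM after Tregs, 12.5 FPKM after naive cells and 7.34 FPKM in un-injected mice. In spleen DC it stood at 13.8 FPKM after Tregs, 21.0 FPKM after naive cells and 15.6 FPKM in un-injected mice, so 1 library lay above the other 5. Lag3 (chr6:124904361-124911705, minus strand) stood in PLN DC at 90.2 FPKM after Tregs, 17.0 FPKM after naive cells and 18.6 FPKM in un-injected mice. In spleen DC it stood at 19.8 FPKM after Tregs, 28.4 FPKM after naive cells and 25.5 FPKM in un-injected mice, again with 1 library above the other 5. Cd209d had log2 ratios of 4.84 after Tregs, 2.86 after naive cells and 0.82 in un-injected mice, above 0 in each. Dab2, an endocytic adaptor, had 3.10 after Tregs, 1.13 after naive cells and 0.59 in un-injected mice, and Fcor, a Foxo1 corepressor, 2.91 after Tregs, 0.97 after naive cells and -2.35 in un-injected mice.

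On the lower side the largest gaps were those of Anapc5, Gm26602, Azi2, Ccdc124 and Ndufc1. Ndufc1, a complex I subunit, had log2 ratios of -1.55 after Tregs, 1.17 after naive cells and -0.27 in un-injected mice. Of the 1509 genes at least 2-fold higher in PLN DC after Tregs, 11 were at least 2-fold lower in both other states, beside 4.38% of all compared genes. None of the 11 was at 5 FPKM or more in a Treg library. Of the 949 genes at least 2-fold lower after Tregs, 2 were at least 2-fold higher in both other states, beside 5.03% of all compared genes. Of these 2, Erdr1 was at 5 FPKM or more. It was at 2.27 FPKM in PLN DC and 7.93 FPKM in spleen DC after Tregs (log2 ratio -1.61), its ratio was 1.66 in un-injected mice, and after naive cells it was at 0.990 FPKM in PLN DC and listed at 0 in spleen DC. Erdr1 lies in the region that the X and Y chromosomes share. As the Treg mice also differ from the others in Y-linked transcripts, transfer and sex chromosomes cannot be told apart for any of these genes.

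**Figure D5:**
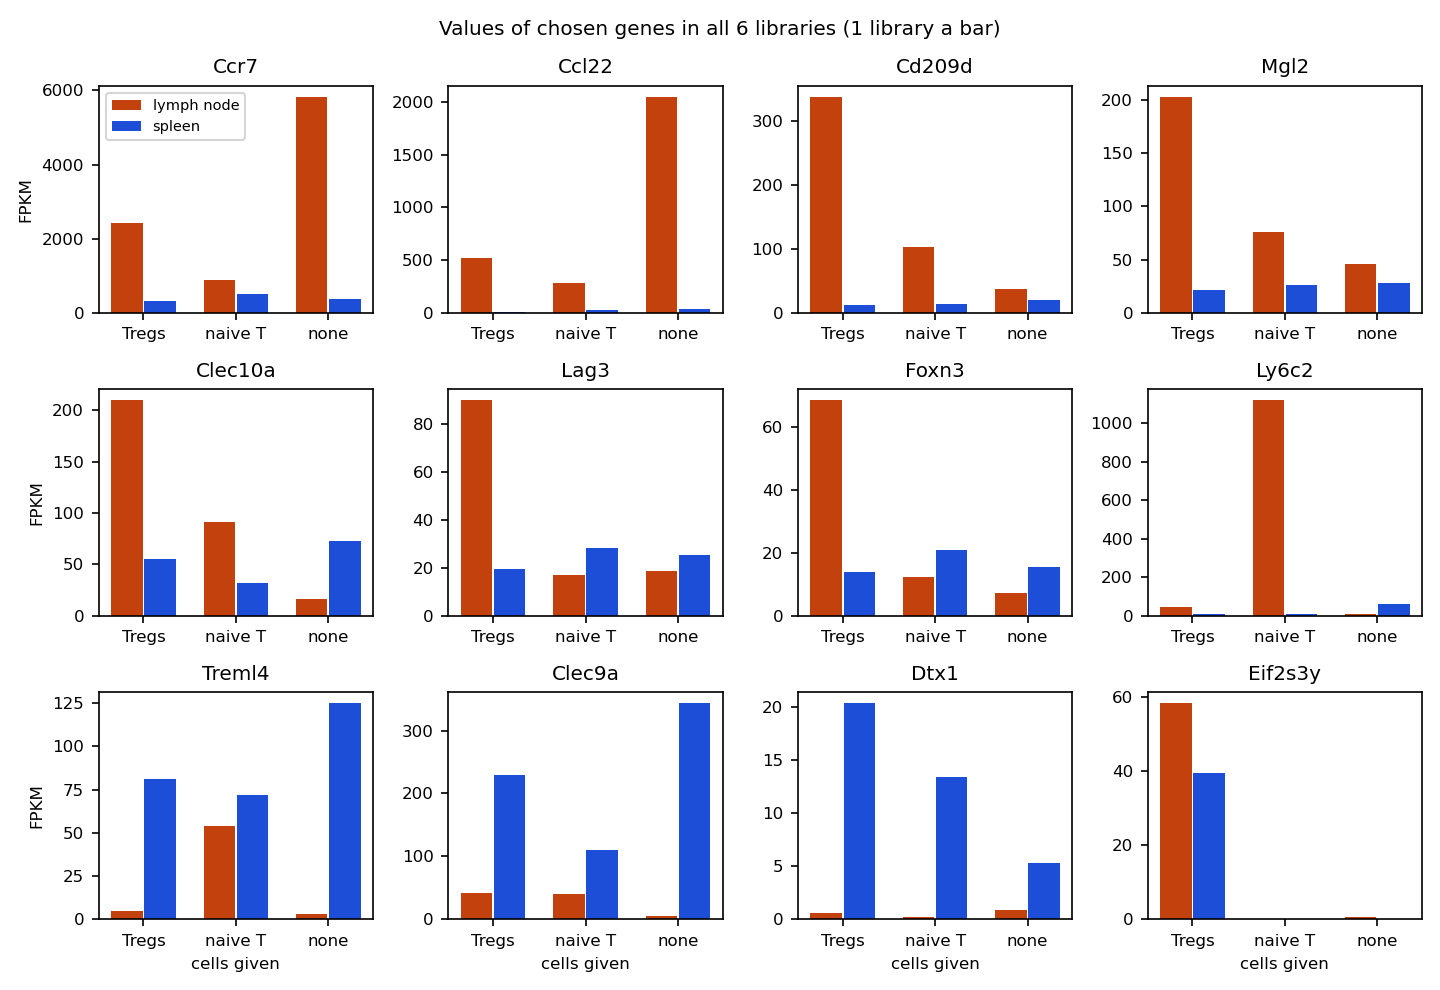
FPKM of 12 genes in all 6 libraries, 1 library a bar, with PLN DC left of spleen DC and the state on the horizontal axis (none, un-injected). Lag3 and Foxn3 are high in the PLN Treg library alone, Ccr7 and Ccl22 are higher in PLN DC in each state, and the Y-linked Eif2s3y is high in both Treg libraries only.

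The one replicated comparison of the tissues used all 6 libraries, with tissue and state as terms in limma on log2(FPKM + 0.5) and Benjamini-Hochberg adjustment over 10790 genes. It has 2 residual degrees of freedom and measures how far the 3 pairs share a tissue difference, not the spread between mice. At an adjusted p of 0.05, 45 genes (0.417%) rose and 21 (0.195%) fell in PLN over spleen DC, and 1420 higher and 1288 lower genes had an unadjusted p under 0.05. Of the maturation list 4 genes rose and none fell, namely Ccl17 (4.80 ± 0.24, adjusted p = 0.0294), Ccl22 (5.36 ± 0.54, adjusted p = 0.042), Il15ra (4.07 ± 0.38, adjusted p = 0.0417) and Cd40 (2.11 ± 0.21, adjusted p = 0.042), each as log2 difference ± SE with limma's adjusted p. Chemokines had 5 that rose, with Ccl8, Cx3cl1 and Cxcl16 beside Ccl17 and Ccl22, and 1 that fell, Ccl3 (-2.26 ± 0.27, adjusted p = 0.0466). Interferon-gamma response genes had 4 that rose, Gbp2 (3.25 ± 0.23, adjusted p = 0.0417), Gbp3, Gbp5 and Socs1. Each of the 4 had its 3 PLN values above its 3 spleen values within the pairs, by log2 ratios of 2.13 to 4.37.

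Genes that fell included 1 of the type 1 DC list, Cadm1 (-3.07 ± 0.30, adjusted p = 0.042), the class II editor H2-Oa (-2.52 ± 0.26, adjusted p = 0.042), the tetraspanin Cd81 (-1.75 ± 0.21, adjusted p = 0.0466), Mmp12 (-3.31 ± 0.30, adjusted p = 0.0417), Asb2 (-3.88 ± 0.41, adjusted p = 0.0424) and the globin Hbb-bt, for which no size is given because it is listed at 0 in PLN DC of both other states. Of the type 2 DC, plasmacytoid, NF-kB, Toll-like receptor, ribosomal and cell cycle lists none passed limma's threshold in either direction. For NF-kB the largest absolute log2 difference was that of Birc2, with 2.33 ± 0.54, adjusted p = 0.0927. Of the 66 genes past the threshold 12 are listed at 0 in at least one library, so their fitted sizes rest on the value added to 0. One of them is Clu, clusterin, which stood in PLN DC at 209 FPKM after Tregs, 28.7 FPKM after naive cells and 687 FPKM in un-injected mice. In spleen DC it was listed at 0 after Tregs and stood at 0.571 FPKM after naive cells and 5.63 FPKM in un-injected mice. The calls depended on the pairs that entered, because without the Treg pair no gene passed in either direction (526 higher and 486 lower at an unadjusted p under 0.05), without the un-injected pair 147 rose and 87 fell, and without the naive pair 775 rose and 578 fell. Without limma's intensity trend no gene passed in either direction either, with 1412 higher and 1190 lower at an unadjusted p under 0.05.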

How the data were processed

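RNA of 6 sorted DC libraries was sequenced, and 1 table of the whole series was used, while 6 tables of pairwise comparisons were not used here. The table holds the authors' FPKM values, made before deposition. The file header does not name the unit, which was taken from the values (non-negative decimals with unequal sums), so the log2 ratios rest on that reading. Per the submitters' processing notes the tools included RSEM and edgeR 3.16.5 and the builds GRCm38.p4 and mm10, without a role. The table gives no counts, so depth and counting error are unknown and no count model was used.

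Values of 38 symbols with several lines were summed. Genes at 1 FPKM in at least one Treg library were compared as the log2 ratio of values + 0.5, which understates folds of low genes, and called at 2-fold, with no test. The replicated comparison used limma 3.58.1 in R 4.3.3 with a trend of variance on level. Its state term pairs the PLN and spleen library of each state. The labels do not say whether libraries came from separate animals, so p-values measure only the spread between these libraries.

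The 41 gene lists (656 genes, 645 in the table, 522 past the filter) and the comparison itself were chosen with earlier results of these data known, so no list is independent evidence of its direction. Some genes are in several lists, so the list counts overlap. Genes were named by rule. These were the 15 highest and 15 lowest ratios at 20 FPKM or more in one library and above 0 in both, list genes at 5 FPKM or more with the largest ratios and defining markers, and the 5 genes each way whose ratio stood farthest from both other states. Other genes named, Cd209e among them, were chosen after their values were seen. Loci were matched by symbol and place for 664 genes, and promoters are from RefSeq. Every value column was mapped to a library by its name.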

Additional observations from a re-analysis of the deposited data

Results flagged for a closer look

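Among list genes and genes named by rule at 20 FPKM or more in one Treg library, 10 had opposite tissue differences in 2 states. For these the PLN over spleen ratio after Tregs was past 2-fold on one side and the ratio of another state past 2-fold on the other. Each ratio comes from 1 library a tissue, so the differences between states were not tested, and transfer and sex chromosomes cannot be told apart in them. Against un-injected mice, 7 of the 10 were higher in PLN DC after Tregs and lower there without injection. Ccr2, the monocyte chemokine receptor, had a log2 ratio of 1.29 after Tregs and -2.82 in un-injected mice. Ly6c2, the classical monocyte marker, had 2.33 after Tregs and -2.91 in un-injected mice. The monocyte list did not switch side with Ccr2 and Ly6c2. Of its 18 genes past the filter 11 had ratios below 0 after Tregs and 3 were at least 2-fold higher. Its median was -0.50 after Tregs and -3.05 in un-injected mice. Ccr9, the homing receptor that plasmacytoid DC carry, had 2.09 after Tregs and -1.32 in un-injected mice. The lectin Clec10a had 1.92 after Tregs and -2.16 in un-injected mice. Fcor had 2.91 after Tregs and -2.35 in un-injected mice. Foxn3 had 2.27 after Tregs and -1.04 in un-injected mice. Sept3, a septin of the type 1 DC list, had 1.03 after Tregs and -1.12 in un-injected mice.

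Against mice given naive CD4 T cells, 3 of the 10 were lower in PLN DC after Tregs and higher there after naive cells. Cxcl9, an interferon-gamma-induced chemokine, had a log2 ratio of -1.14 after Tregs and 2.22 after naive cells. Ifi205, an interferon-inducible DNA-binding protein, had -1.30 after Tregs and 1.75 after naive cells. Ndufc1 had -1.55 after Tregs and 1.17 after naive cells.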

How the results depend on the processing

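The count of genes at least 2-fold higher in PLN DC was 892 with a filter at 5 FPKM and 873 for genes at 1 FPKM or more in both libraries (added after the data were seen), against 1509; the smaller sets of genes tested lower it by construction. With the other pseudocounts, filters and scalings run it was 1289 to 1996. Of 282 list medians under alternatives, 258 stayed within 1.5-fold, as did 259 of 266 ratios of named genes, none of which changed sign. Of the 258, 3 near 0 changed sign, namely the type 2 DC median (0.02 at equal library sums and 0.008 with 1 FPKM in both) and the lectin median (0.05 at equal library sums). The neutrophil median was -1.22 at a pseudocount of 1, -3.84 at 0.1, -0.85 without a filter and -0.26 at the filter of 5 FPKM or with 1 FPKM in both. Without a filter the Langerhans median was 1.25, the B cell median -0.28, the erythroid median -3.58 and the platelet median 0.24, turned round. The chemokine median was 0.43 at the filter of 5 FPKM and 0.039 with 1 FPKM in both. Both of these filters turned round the natural killer median (-0.42 against 1.07) and the stromal one (-0.51 against 1.35). In limma, 216 genes rose and 137 fell without the state term, 39 fell at a pseudocount of 1, and 0 passed in either direction without the intensity trend or without a filter (1536 higher and 1339 lower at an unadjusted p under 0.05); the cause was not tested. Leaving out each pair in turn gave 0 to 775 genes that rose and 0 to 578 that fell. The state term is the only pairing of the libraries, since the labels give no replicate numbers.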
